A study of Homo sapiens with 6 samples.

Results

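Metallothioneins and regulators of zinc were followed in PATU8988 cells, an established human pancreatic cancer line, after knockdown of CLIC1, a chloride intracellular channel protein. The 9 genes were chosen from a list of names, MT1E, MT1F, MT1G, MT1M, MT1X, MT2A, MTF1, SLC30A1 and SLC39A10, among the 60831 genes of the deposited table, and the list was drawn up with the knockdown values of these data in view. Their levels and differences are therefore given as a description and support nothing on their own. The knockdown group was 3 samples of cells carrying a lentiviral hairpin against CLIC1 (shCLIC1), and the control group was 3 samples carrying a control hairpin (shNC). Both groups carried a vector with EGFP and puromycin resistance and were kept in 5 μg/mL puromycin for 2 weeks, so both are selected stable lines. The sources used here do not give the hairpin sequences or say whether samples of a group are separate infections or cultures, so errors and p-values cover only how far these samples differ, and that spread may be technical.

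Metallothioneins are small cysteine-rich proteins that bind zinc and copper and buffer their free levels in the cell. MTF1, the metal-responsive transcription factor, binds zinc through its zinc fingers, moves to the nucleus and activates metallothionein genes through short promoter elements called metal response elements. The same factor activates SLC30A1, the exporter that moves zinc out across the plasma membrane, and in mouse cells it represses Slc39a10, whose product is an importer of zinc. Metallothionein genes also respond to copper, cadmium, glucocorticoids and oxidants, which is why lists for those responses were examined beside the zinc genes.

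The promoters of MT2A, MT1X and SLC30A1 are shown because they hold matches to the core of the element that MTF1 recognises. The core was searched as TGCACNC and as TGCGCNC on both strands, and every match is in capitals, written as it reads on the strand of the gene. Matches of the core did not overlap one another in these windows. Each window holds 250 bases before the gene start and 50 bases after it, from RefSeq on GRCh38.p14. MT2A lies on the plus strand at chr16:56608334-56608633, MT1X on the plus strand at chr16:56682220-56682519 and SLC30A1 on the minus strand at chr1:211579112-211579411.
MT2A: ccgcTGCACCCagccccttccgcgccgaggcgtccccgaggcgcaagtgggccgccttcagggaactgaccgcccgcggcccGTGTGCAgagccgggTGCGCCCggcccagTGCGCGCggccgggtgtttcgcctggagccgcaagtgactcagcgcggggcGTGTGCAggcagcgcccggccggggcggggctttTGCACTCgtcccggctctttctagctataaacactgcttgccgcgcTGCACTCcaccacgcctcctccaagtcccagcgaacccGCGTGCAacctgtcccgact
MT1X: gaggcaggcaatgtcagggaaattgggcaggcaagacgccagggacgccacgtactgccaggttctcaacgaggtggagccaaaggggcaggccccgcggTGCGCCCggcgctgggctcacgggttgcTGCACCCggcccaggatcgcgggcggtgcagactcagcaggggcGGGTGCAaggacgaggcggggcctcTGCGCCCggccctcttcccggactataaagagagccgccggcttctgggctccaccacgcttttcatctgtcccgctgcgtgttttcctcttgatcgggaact
SLC30A1: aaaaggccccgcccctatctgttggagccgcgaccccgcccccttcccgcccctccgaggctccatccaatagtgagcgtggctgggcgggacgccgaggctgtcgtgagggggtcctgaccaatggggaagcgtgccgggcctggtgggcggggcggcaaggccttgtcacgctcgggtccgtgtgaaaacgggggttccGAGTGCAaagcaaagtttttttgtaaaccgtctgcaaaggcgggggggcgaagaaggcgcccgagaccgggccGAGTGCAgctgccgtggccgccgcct

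The MT2A window held 8 matches of the core and the MT1X window held 4. Of all 35116 promoter windows in the table, 29.6% held at least 1 match, 0.601% held at least 4 and 0.0199%, or 7 windows, held at least 8. Among family genes outside the members, MT1H also held 8 matches, and MT1B and MT4 held 3 each. MT1H, MT1B and MT4 were listed at 0 TPM in every library, which does not show that they are silent. Whether the number of matches goes with the level was not tested. In MT2A the matches lay between positions −246 and 30 relative to the gene start, with 5 on the strand of the gene and 3 on the other. In MT1X they lay between positions −150 and −53, with 3 on the strand of the gene and 1 on the other. SLC30A1 held 2 matches, both on the other strand, a number that 8.60% of all windows reached or passed. MTF1 held 0 matches. SLC39A10 has a pair of RefSeq starts in the table, 1 of which held 0 matches and the other 1. MT1E, MT1F, MT1G and MT1M have no window in the table. A match is a description of the letters and was not tested as a binding site.

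**Figure D1:**
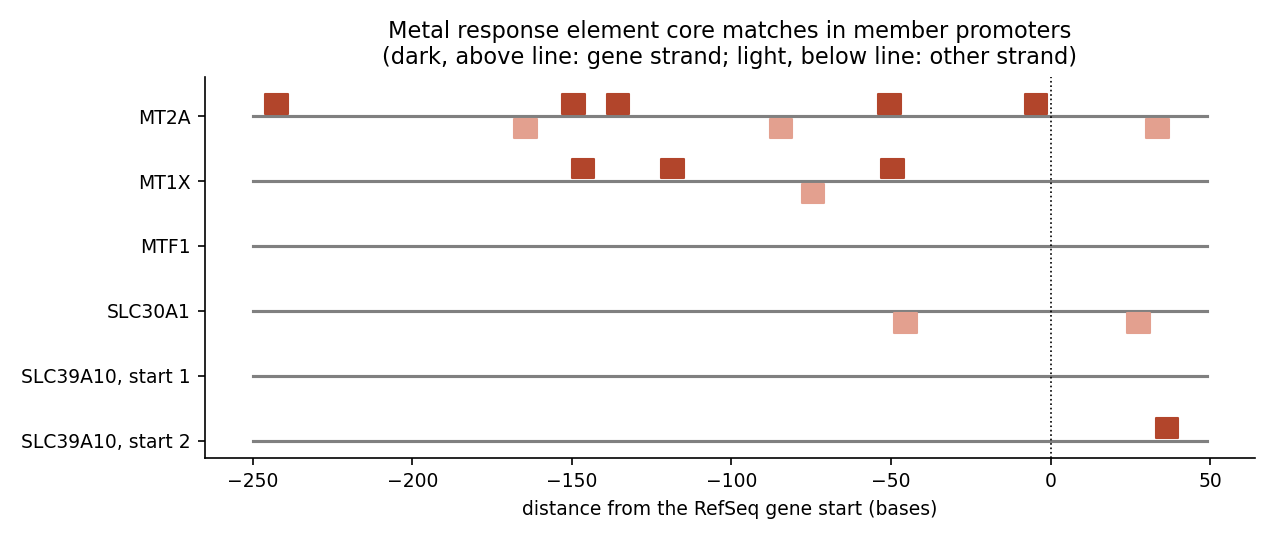
Matches of the metal response element core in the promoter windows of 5 members, by distance in bases from the RefSeq gene start. Dark blocks above a line are on the strand of the gene and light blocks below it on the other strand; MT2A shows 8 blocks, MT1X 4, SLC30A1 2, MTF1 0, and the SLC39A10 starts 0 and 1.

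All 6 metallothionein members lie in a single cluster on chromosome 16, which spans 56565049 to 56684196 in GRCh38 by GENCODE release 29, or 119 kb, and holds 16 family genes and pseudogenes. Along the cluster stand MT2A (56608199 to 56609497), MT1E (56625475 to 56627112), MT1M (56632233 to 56633986), MT1F (56657694 to 56660698), MT1G (56666731 to 56668065) and MT1X (56682424 to 56684196). MT1G is on the minus strand and the other 5 are on the plus strand. Chromosome 1 carries MTF1 (37809567 to 37859620) and SLC30A1 (211571568 to 211578742), both on the minus strand, and chromosome 2 carries SLC39A10 (195575977 to 195737702) on the plus strand. The RefSeq starts used for the promoters need not equal these gene ends, and those of MT2A, MT1X, MTF1 and SLC39A10 lie inside the GENCODE gene, while that of SLC30A1 lies before it. All 9 are protein-coding.

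Values are TPM as deposited, which divides reads by transcript length and scales every library to the same total, so levels may be compared between genes. The depth of the libraries is unknown. Between 13927 and 14257 genes reached 1 TPM in a library. CLIC1 itself was at 219, 210 and 204 TPM in the knockdown libraries and at 313, 311 and 297 TPM in the control libraries, so that it fell to 68.8% of the control level (log2 fold change −0.54, SE 0.0407, adjusted p = 0.00345 by limma). Of 8 markers of simple epithelium, KRT8, KRT18, KRT19 and EPCAM passed as higher in knockdown by limma, with KRT8 at a mean of 5040 TPM in knockdown and 4297 TPM in control and EPCAM at 446 TPM in knockdown and 354 TPM in control. CDH1, CLDN4, KRT7 and MUC1 did not pass, with KRT7 and MUC1 below 4 TPM in every library. Of 13 markers of leukocytes, stroma, endothelium, liver and normal pancreas, 9 stayed under 1 TPM in every library. PTPRC, CD3E, COL1A2, DCN and CPA1 were listed at 0 throughout. CD14, PRSS1, COL1A1 and PDGFRB passed 1 TPM in some libraries. CD14 was at 5.85, 5.84 and 6.69 TPM in knockdown and 3.86, 5.22 and 5.54 TPM in control. PRSS1 was at 4.64, 4.99 and 4.04 TPM in knockdown and 3.05, 2.84 and 3.57 TPM in control. Both lay wholly higher in knockdown, and neither passed by limma. The groups overlapped in COL1A1 and PDGFRB, which did not pass. The 13 markers together summed to between 13.0 and 14.2 TPM in knockdown and between 10.2 and 12.9 TPM in control, and their part in the results was not tested.

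Of the 9 genes, 7 had a mean of at least 1 TPM over the 6 libraries and entered the comparison, which was made by limma on log2(TPM + 1) over 14135 genes. MT2A and MT1E fell in knockdown at an adjusted p under 0.05 over all tested genes, 5 of the 7 did not pass, and 0 rose, nor did any have a positive fold change. Over all tested genes 0.778% passed as lower and 0.962% as higher. The knockdown libraries lay wholly below the control libraries in 5 of the 7 genes, MT2A, MT1E, MT1X, MTF1 and SLC39A10, which was the case for 11.2% of all tested genes. All 7 log2 fold changes were negative, with a median of −0.23, against a median of −0.00 and 51.3% negative over all tested genes. Because the genes were picked with this comparison known, and only those above the level filter are counted, nothing is read from these counts. By level the order was MT2A, MT1E, MT1X, MT1F, SLC39A10, SLC30A1 and MTF1 in knockdown and in control alike. Neighbours in that order did not overlap, except MT1F and SLC39A10, whose values overlapped in both groups, and SLC39A10 and SLC30A1, whose values overlapped in knockdown.

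MT2A, the main metallothionein of these cells, was at 1441, 1308 and 1420 TPM in the knockdown libraries and at 1771, 1828 and 1778 TPM in the control libraries. Every knockdown library was below every control library, and the gap between the groups was wider than the spread within either. The means were 1390 ± 71.8 TPM in knockdown and 1792 ± 31.2 TPM in control (SD, n = 3 each), which put knockdown at 77.5% of the control level and the log2 fold change at −0.37 (SE 0.0399). By level MT2A ranked 118th among all genes in knockdown and 97th in control. The call was lost without control replicate 1, 2 or 3, at log2 fold changes of −0.38, −0.35 and −0.37, and, at −0.37, without a filter on low values, without the mean-variance trend of the model and with the replicate number as a block.

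MT1E, a further zinc-binding isoform, was at 202, 196 and 199.6 TPM in the knockdown libraries and at 278, 269 and 279 TPM in the control libraries. Both groups were tight and far apart for this gene. Knockdown averaged 199 ± 2.80 TPM and control 275.0 ± 5.61 TPM, or 72.5% of the control level, a log2 fold change of −0.46 (SE 0.0338). That was the member with the largest difference on the log2 scale and the smallest SE. Without the mean-variance trend MT1E did not pass, at the same log2 fold change.

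MT1X was at 164, 150.1 and 149 TPM in the knockdown libraries and at 224, 208 and 178 TPM in the control libraries. The groups did not overlap, and control replicate 3 stood nearest to the knockdown values. Knockdown averaged 154 ± 8.17 TPM and control 203 ± 23.0 TPM, or 75.8% of the control level, at a log2 fold change of −0.39 (SE 0.0843), and the gene did not pass the test. It passed when only genes with a mean of at least 5 TPM were tested, at the same log2 fold change. MT1X shares its strand and part of its exons with a non-coding gene, AC026461.1, which was listed at 0 in every library, and reads of the shared part were not separated here.

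MT1F was at 12.1, 12.1 and 14.3 TPM in the knockdown libraries and at 9.77, 14.9 and 17.3 TPM in the control libraries. The groups overlapped, and the control libraries spread more widely than the knockdown ones. Knockdown averaged 12.8 ± 1.25 TPM and control 14.0 ± 3.87 TPM, and the log2 fold change of −0.09 (SE 0.190) was smaller than its error. It turned to 0.073 without control replicate 3. MT1G and MT1M were listed at 0 in all 6 libraries and gave no comparison. A listed 0 does not show that a gene is silent, since an estimate can fail where genes share sequence. The deposited length was 628 bases for MT1G and 232 for MT1M, against 581 for MT2A and 404 for MT1X. The reason for the listed 0 was not tested.

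**Figure D2:**
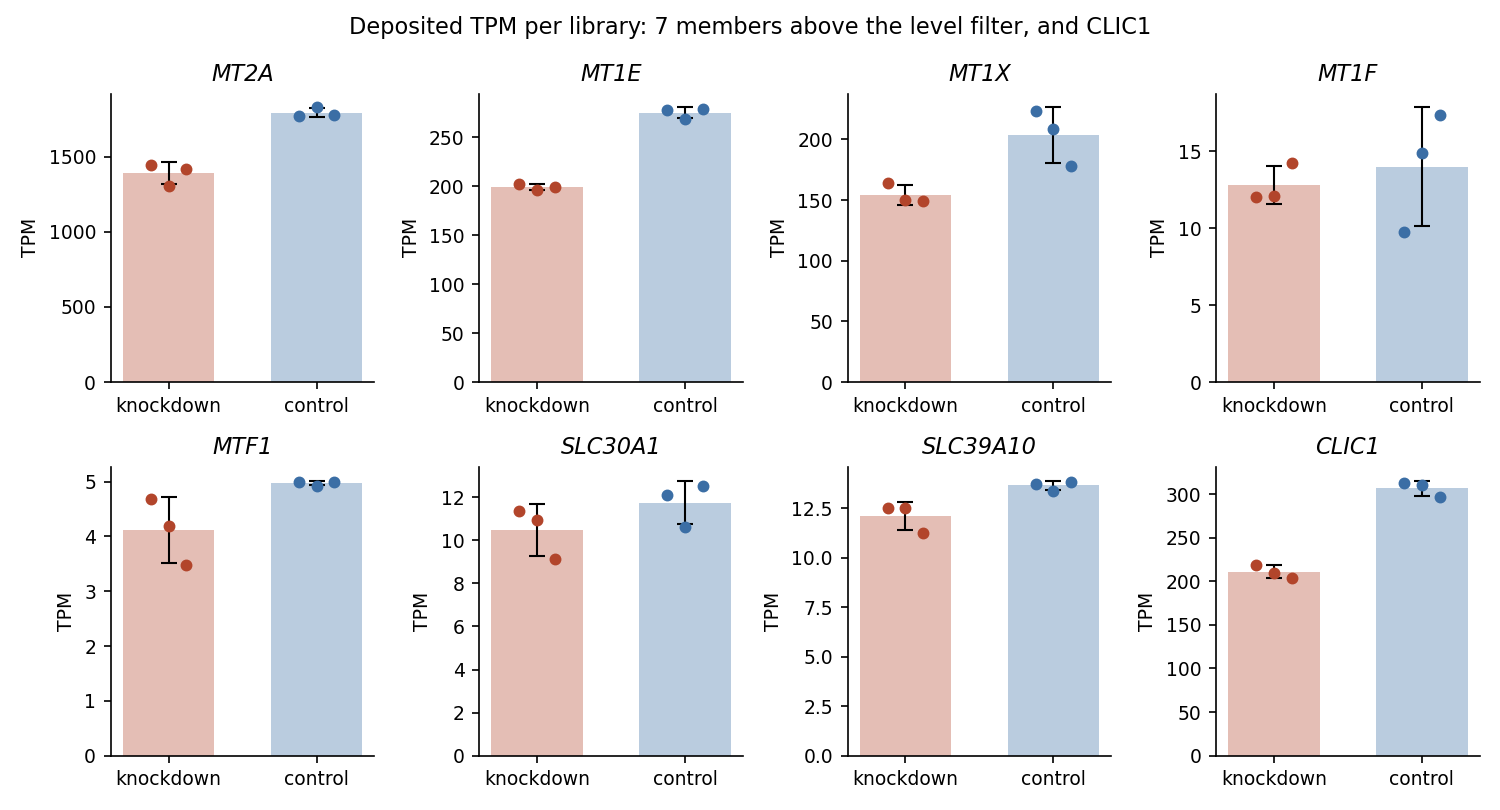
Deposited TPM of 7 members and of CLIC1, one panel a gene, with knockdown left of control; points are libraries, bars are means of 3 and error bars are SD. MT2A, MT1E and MT1X show knockdown points wholly below the control points, while the groups overlap in MT1F and SLC30A1.

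Across the family, MT2A, MT1E and MT1X carried nearly all of the metallothionein transcript level. The 21 family genes and pseudogenes of the table, 13 of which were listed at 0 throughout, summed to 1835, 1690 and 1807 TPM in the knockdown libraries and to 2306, 2341 and 2271 TPM in the control libraries. The sums averaged 1777 ± 77.3 TPM in knockdown and 2306 ± 34.9 TPM in control, or 77.1% of the control level, and no p is given for a sum over chosen genes. MT2A made up 78.2% ± 0.672 of the sum in knockdown and 77.7% ± 0.804 in control. The share of MT1E was 11.2% ± 0.347 in knockdown and 11.9% ± 0.412 in control, and that of MT1X was 8.68% ± 0.375 in knockdown and 8.82% ± 0.923 in control. The ranges of each of these 3 shares overlapped between the groups. The rest of the family summed to 34.1 ± 4.99 TPM in knockdown and 34.8 ± 1.46 TPM in control, a difference smaller than its spread. In bulk RNA, fewer cells that express a gene and less of its RNA in each cell cannot be told apart.

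Of the 15 family genes and pseudogenes outside the members, 11 were listed at 0 throughout and 3 were tested, and by limma 0 of the 3 passed, also 0 at an unadjusted p under 0.05. MT1A was at 12.2 ± 3.43 TPM in knockdown and 11.7 ± 1.85 TPM in control (log2 fold change 0.03, SE 0.204). MT1L, a transcribed pseudogene, was at 5.07 ± 1.81 TPM in knockdown and 4.76 ± 0.792 TPM in control. MT3, known as the brain isoform, was at 3.05 ± 0.0850 TPM in knockdown and 3.93 ± 0.605 TPM in control. Its log2 fold change was −0.28 (SE 0.130, adjusted p = 0.363 by limma). The knockdown libraries of MT3 lay wholly below its control libraries, which was the case for 11.2% of all tested genes. In MT1A and MT1L the groups overlapped. MT1JP, a pseudogene under the level filter that was singled out after its values were seen, was at 1.18, 1.12 and 0.68 TPM in knockdown and 0.16, 0.51 and 0.58 TPM in control.

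**Figure D3:**
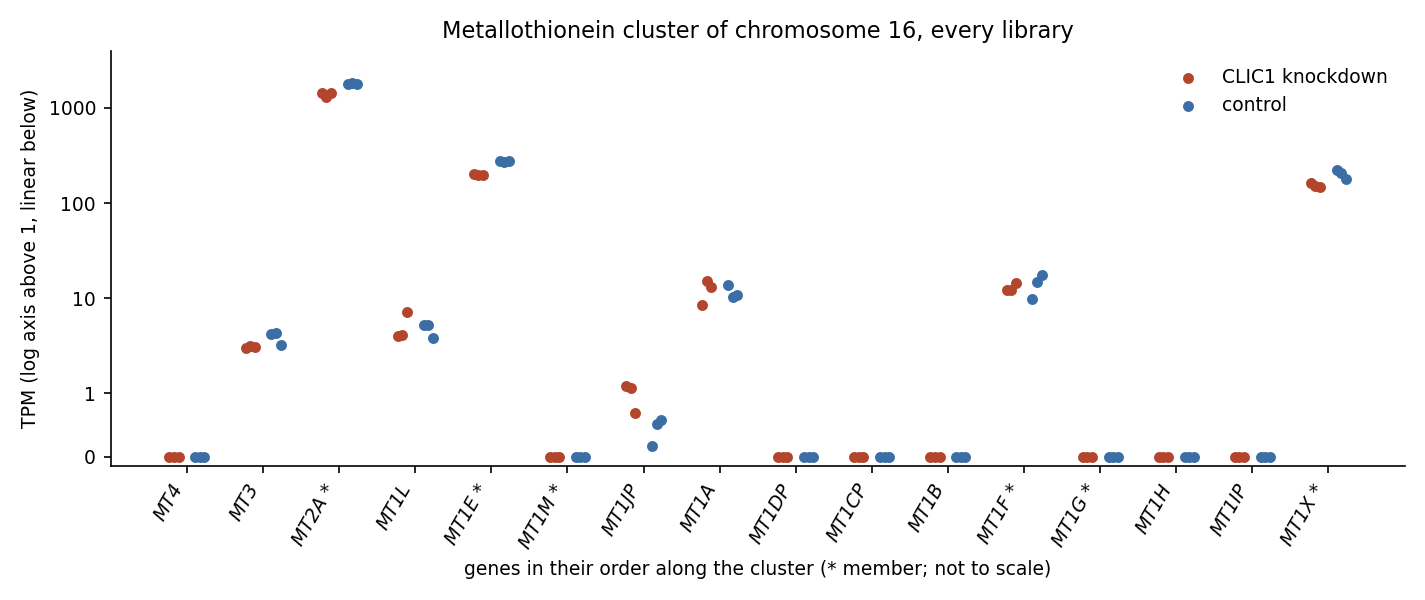
TPM of each gene of the chromosome 16 metallothionein cluster in every library, in their order along the cluster, with knockdown left of control; the axis is logarithmic above 1 TPM and linear below. MT2A, MT1E and MT1X stand well above the rest of the cluster, and their knockdown points lie below their control points, while MT1G and MT1M lie at 0.

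Metallothionein transcripts resemble one another, which bears on how reads were divided between them. Among all 50-base words in the GENCODE transcripts of a gene, 3.02% in MT2A, 7.10% in MT1E, 1.22% in MT1F, 9.87% in MT1M, 16.5% in MT1G and 18.3% in MT1X occurred in transcripts of another gene. For MT1X, 273 of its 341 shared words were shared with AC026461.1. With words of 100 bases, the share was 11.3% for MT1X and 0% for MT2A, MT1E, MT1F, MT1G and MT1M. SLC30A1 and SLC39A10 shared 0% at either length. The sources used here do not give the read length, and the part of shared reads in the values was not tested.

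MTF1, the metal-responsive factor, was at 4.68, 4.19 and 3.48 TPM in the knockdown libraries and at 5.00, 4.93 and 5.00 TPM in the control libraries. The control libraries were nearly equal, while the knockdown libraries were spread out below them. MTF1 averaged 4.12 ± 0.603 TPM in knockdown and 4.98 ± 0.0404 TPM in control, at a log2 fold change of −0.23 (SE 0.118), and did not pass the test. Without knockdown replicate 3 its log2 fold change was −0.14.

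SLC30A1, the zinc exporter of the plasma membrane, was at 11.4, 10.9 and 9.12 TPM in the knockdown libraries and at 12.1, 10.6 and 12.5 TPM in the control libraries. The groups overlapped, since control replicate 2 lay below a pair of knockdown libraries. Knockdown averaged 10.5 ± 1.20 TPM and control 11.8 ± 1.01 TPM, with a log2 fold change of −0.15 (SE 0.106), and the gene did not pass. Without knockdown replicate 3 its log2 fold change was −0.066.

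SLC39A10, the zinc importer, was at 12.5, 12.5 and 11.3 TPM in the knockdown libraries and at 13.7, 13.4 and 13.8 TPM in the control libraries. All knockdown libraries were below the control libraries, with a narrow gap. Knockdown averaged 12.1 ± 0.716 TPM and control 13.7 ± 0.232 TPM, with a log2 fold change of −0.16 (SE 0.0727), and the gene did not pass. Without knockdown replicate 3 its log2 fold change was −0.12. Knockdown replicate 3 had the lowest value of the 6 libraries in MTF1, SLC30A1 and SLC39A10 and also in MT1X. It was the library with the fewest genes at 1 TPM, 13927, and the part of this in the results was not tested.

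Among other zinc transporters no gene passed the test. The tested SLC30 exporters were SLC30A5, SLC30A6, SLC30A7 and SLC30A9, which load zinc into organelles or, for SLC30A9, act at mitochondria, and 0 of the 4 passed in either direction, 0 at an unadjusted p under 0.05 (limma). SLC30A7 had the smallest p, at 4.14 ± 0.416 TPM in knockdown and 4.72 ± 0.364 TPM in control (log2 fold change −0.16, SE 0.113, adjusted p = 0.566 by limma). Of the SLC39 importers other than SLC39A10, 10 were tested and 0 passed, with 0 at an unadjusted p under 0.05 by limma and a median log2 fold change of 0.05. SLC39A14, an importer of zinc and iron, had the smallest p, at 33.8 ± 2.29 TPM in knockdown and 37.6 ± 0.899 TPM in control (log2 fold change −0.15, SE 0.0638, adjusted p = 0.322 by limma). SLC39A6, the closest relative of SLC39A10, was singled out after its values were seen: it was at 56.2 ± 5.21 TPM in knockdown and 48.8 ± 4.02 TPM in control, at a log2 fold change of 0.20 (SE 0.0871) that did not pass. Its sign was opposite to that of SLC39A10, and the difference between the genes was not tested.

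**Figure D4:**
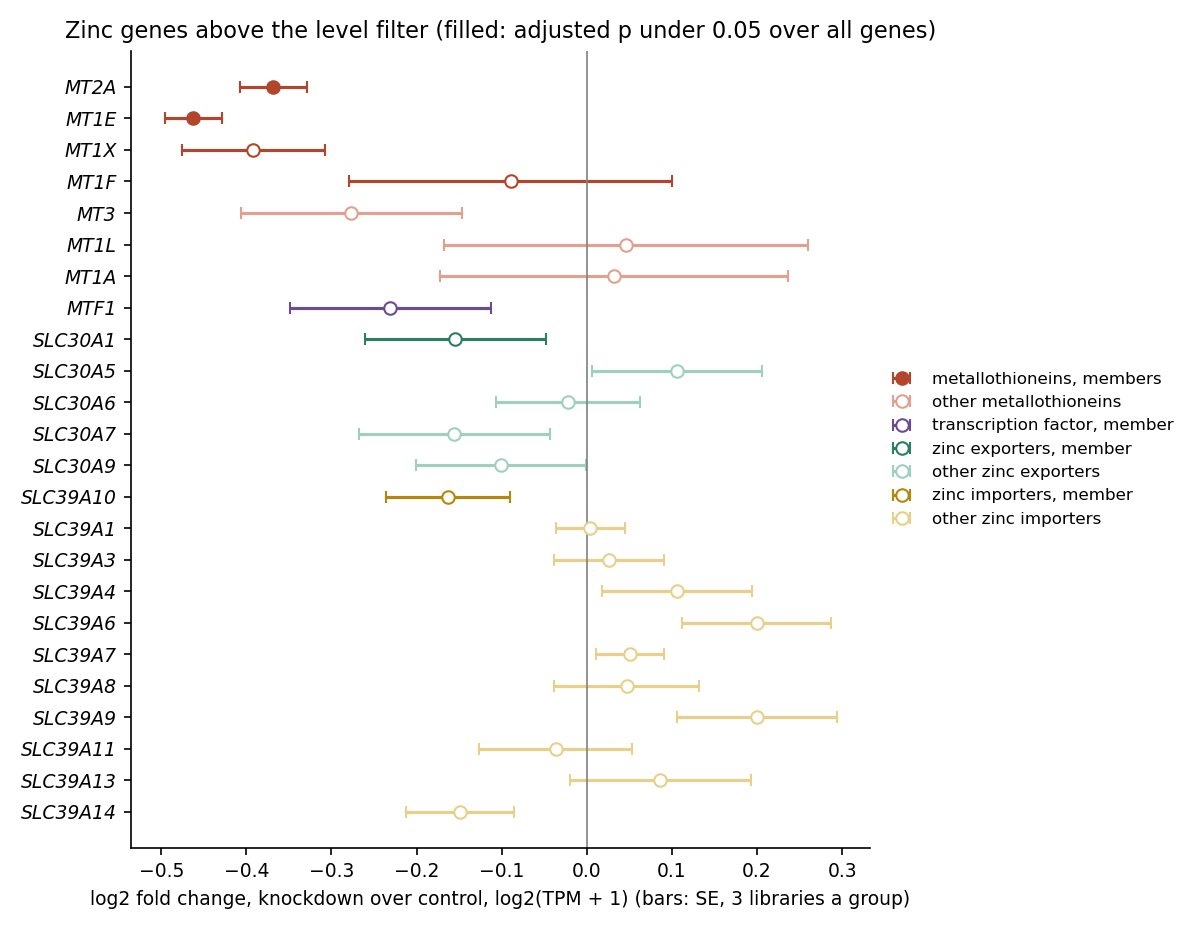
Log2 fold change of knockdown over control on the log2(TPM + 1) scale, with SE from limma, for metallothioneins, MTF1 and zinc transporters above the level filter; filled points passed at an adjusted p under 0.05. MT1E and MT2A are filled at −0.46 and −0.37, and all other points are open.

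Other responses that are known to move metallothionein genes were examined for the genes of each list. Over the 108 genes of all lists that are not members, the families above included, 78 were tested, and by limma 0 passed in either direction, with 12 at an unadjusted p under 0.05, which 15.6% of all tested genes had, and a median log2 fold change of −0.02. Further genes linked to MTF1 had 0 of 4 past the threshold, with the glutathione synthesis enzyme subunit GCLC at 25.1 ± 1.80 TPM in knockdown and 27.4 ± 0.681 TPM in control (adjusted p = 0.430 by limma). Copper handling genes had 0 of 13, and the smallest p was that of CCS, the copper chaperone of superoxide dismutase, at 35.9 ± 2.04 TPM in knockdown and 30.7 ± 2.29 TPM in control (log2 fold change 0.22, SE 0.0743, adjusted p = 0.204 by limma). Iron handling genes had 0 of 10, with SLC11A2, an iron importer, at 11.1 ± 0.795 TPM in knockdown and 13.3 ± 0.346 TPM in control (adjusted p = 0.199 by limma). At an unadjusted p under 0.05 these 3 lists held 0, 2 and 1 genes.

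Glucocorticoid-induced genes had 0 of 9 past the threshold by limma, with 1 at an unadjusted p under 0.05. It was ZFP36, an mRNA decay factor, at 23.0 ± 1.32 TPM in knockdown and 18.9 ± 0.761 TPM in control (log2 fold change 0.27, SE 0.0686, adjusted p = 0.111). NR3C1, the glucocorticoid receptor, singled out after its values were seen, was at most 0.17 TPM in any knockdown library and 0.15 TPM in any control library. Oxidant response genes had 0 of 10, with 4 at an unadjusted p under 0.05 by limma, which 15.6% of all tested genes had. HMOX1, the haem-degrading enzyme that metals and oxidants both induce, was at 18.7 ± 1.64 TPM in knockdown and 24.6 ± 1.72 TPM in control (log2 fold change −0.38, SE 0.0862, adjusted p = 0.0864), the smallest p of all the lists. Heat shock genes had 0 of 9, with 4 at an unadjusted p under 0.05 by limma, beside the same 15.6% of all tested genes. Of their 9 log2 fold changes 8 were negative, at a median of −0.08, where 51.3% were negative over all tested genes. The knockdown libraries lay wholly below the control libraries in 4 of the 9, which was the case for 11.2% of all tested genes. These were HSPA8, HSPH1, DNAJB1 and HSP90AA1, at 94.9%, 89.7%, 89.2% and 91.8% of the control level, and they were named after their values were seen. DNAJB1, a co-chaperone, was at 91.5, 88.7 and 87.0 TPM in knockdown and 101, 99.9 and 98.3 TPM in control (adjusted p = 0.112).

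Beside the metallothionein cluster, on the MT1X side, lies NUP93, which encodes a nuclear pore protein and had the smallest p of the 6 tested neighbours. By limma 0 of the 6 passed and 0 had an unadjusted p under 0.05, which 15.6% of all tested genes had. All 6 log2 fold changes were negative, at a median of −0.08, where 51.3% were negative over all tested genes. NUP93 was at 58.0 ± 2.12 TPM in knockdown and 61.3 ± 1.95 TPM in control (log2 fold change −0.08, SE 0.0509, adjusted p = 0.524 by limma), and did not pass.

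The pattern of MT2A over the 6 libraries was compared with those of tested genes of unique name outside the metallothionein family. The closest was PGD, a pentose phosphate enzyme, then FASN, the fatty acid synthase, and AC125611.3, a transcript antisense to TUBA1C. Reads of AC125611.3 may not be separated from those of TUBA1C. Next came BCAS2, a splicing factor, and ACAT2, a thiolase of sterol synthesis. Likeness was the root mean square distance between centred log2(TPM + 1) profiles, which ran between 0.0203 for PGD and 0.0356 for ACAT2. Both MT1E at 0.0653 and MT1X at 0.104 were farther from MT2A than these 5 genes. With a group difference and 3 libraries a group, many genes lie close to any profile, and the distances are a description.

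A 7-base word, GTGCTGA, chosen with earlier results of these data known as frequent in the 3′ UTRs of lower genes, was looked for in the longest coding transcript of each member. It occurred once in MTF1 and once in SLC39A10, whose 3′ UTRs are 5569 and 2661 bases long, and not in SLC30A1 or the 6 metallothioneins, whose 3′ UTRs are 3820 and between 139 and 393 bases. Of all tested genes with a 3′ UTR 12.8% held it, against 48 of 97 genes called lower and 5 of 129 called higher. MT2A and MT1E were thus among the 49 lower genes without the word. Because the word was chosen as frequent in lower genes, its excess among them was set by that choice and is a description only.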

How the data were processed

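Bulk RNA was measured in 3 CLIC1 knockdown and 3 control samples, grouped by their titles; the table's columns were matched by replicate number, those with the control abbreviation to control and the others to knockdown. The tools that the submitters' processing notes name are edgeR, RSEM, HISAT and fastp, with GRCh38 as the build; the sources used here do not give versions, annotation, strand setting or filters. The authors deposited values in TPM, a unit that keeps no depth, so the depth is unknown.

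Values were transformed to log2(TPM + 1), a pseudocount of 1 that understates changes of low genes. Genes with a mean of at least 1 TPM were tested, knockdown against control, with limma 3.58.1 (R 4.3.3, mean-variance trend, no covariate, two-sided), with Benjamini-Hochberg adjustment over 14135 genes and a threshold of 0.05. The test was first checked on simulated data. That check set a condition only on the direction of recovered changes and on recovery of changes larger than those reported here. It therefore does not bear on genes that did not pass. Members and lists were chosen with earlier results of these data known. Named genes are the members, CLIC1, the called genes or the smallest p of each list, and the 5 profiles closest to MT2A; further genes, among them MT1A, MT1L, MT1JP, SLC39A6, NR3C1 and markers, were named after their values were seen. The profiles closest to SLC30A1 and some neighbours of the metallothionein cluster are not reported here. MT1IP was matched by identifier. Positions and transcripts came from GENCODE release 29 and promoters from RefSeq, which held 5 of the 9 members. Alternatives were another pseudocount, other filters, no trend, rescaling, a replicate block and leaving out each library.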

Additional observations from a re-analysis of the deposited data

How the results depend on the processing

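The count of members called lower was 2, and it was 1 without a filter on low values, 0 without the mean-variance trend and 1 with the replicate number as a block. With 1 library left out it was between 1 and 2. With a pseudocount of 0.1 and after median rescaling it was 2, and it was 3 among genes with a mean of at least 5 TPM. The count called higher and the count of other list genes called were 0 in all 12 alternatives. MT1E kept its call in 11 of 12 alternatives, losing it without the trend, as did CLIC1, and MT2A kept it in 6 of 12. The direction held in every alternative for the members tested, except MT1F, whose log2 fold change was between −0.31 and 0.073 with 1 library left out, the 0.073 being without control replicate 3. The causes were not tested. MTF1 gave no value at the filter of 5 TPM. The labels share replicate numbers between groups, and whether same-numbered libraries are pairs is unknown. Correlations of their deviations across genes were 0.0396, −0.0460 and −0.0132. Libraries of unlike number gave between −0.0406 and 0.0544. With 3 libraries a group, these values show no pairing and cannot exclude one. The block left 20 genes lower and 21 higher over the whole table, against 110 and 136 without it. No filter left 31 lower and 30 higher, no trend left 0 and 0, and leaving out 1 library left between 14 and 86 lower and between 6 and 150 higher. Depth is unknown, so the counting error of low values, and of values listed at 0, could not be given.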
